A study of Rattus norvegicus with 12 samples.

Results

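Lysosomes digest what a cell takes up and what it recycles from itself, and the members described here are 36 genes of that compartment: 32 that encode lysosomal enzymes, membrane proteins or proton pump subunits, and the 4 transcription factors of the MiT/TFE family, Tfec, Tfeb, Tfe3 and Mitf. They were taken by gene symbol from the probe annotation of the array. Of the 36, 34 were measured under their name, among 16633 genes in all, and Ctsz and Sgsh were not analysed here. The set was selected on measured values, the far lower Tfec of CHIR against Control, together with its family and the genes that family is known to regulate. The values of CHIR against Control are therefore given as a description, with counts of calls but no p-value for any member, and Tfec is described without a test in every comparison, since each shares the CHIR or Control arrays it was chosen on or repeats that contrast.

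The arrays measured XEN cells, stem cells of the extraembryonic endoderm, from the Fisher rat, with 1 array per sample and 4 groups of 3. Controls were left untreated. Cells of the CHIR group were given 3 µM CHIR99021, which inhibits the kinase GSK3 and so stabilises beta-catenin, for 2 days, and the Forskolin group received 10 µM forskolin, which activates adenylate cyclase and raises cAMP, for 1 day. The combination group (CHIR_Forskolin in the labels) received CHIR99021 for 2 days and forskolin on the last 1 day, and every group spent that last day in medium with 0.1% serum. Nothing in the labels says that the 3 samples of a group came from separate cultures, so the p-values rest on a spread among samples that may be only technical.

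Yolk sac endoderm is known for heavy uptake and digestion: visceral endoderm takes up maternal protein through apical receptors and breaks it down in large lysosomes. In mouse and human cells the MiT/TFE factors bind E-box sequences of the CLEAR type in promoters of lysosomal and autophagy genes. The kinase complex mTORC1, which sits on the lysosome, keeps Tfeb, Tfe3 and Mitf in the cytoplasm by phosphorylating them, and GSK3 also phosphorylates Tfeb and Mitf. Tfec is the family member with the most restricted expression, described mainly in mouse macrophages.

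All values are log2 signals as deposited, and the value of a gene is the median of its probe sets. Array medians lay between 7.76 and 7.86, and over all genes arrays correlated at 0.995 to 0.997 inside a group and at 0.966 to 0.990 across groups. As a reference for background, the 1102 measured olfactory receptor genes had a 95th percentile of 6.42. The mean of every one of the 34 measured members exceeded it somewhere, and 32 exceeded it in all 4 groups. The exceptions were Tfec, below it in CHIR, and Mitf, below it in CHIR and in the combination. The identity of the cells was checked on 7 extraembryonic endoderm markers. All 7 lay above the reference in Control and in CHIR, and 6 did in the other 2 groups, where Foxq1 did not. The log2 of their summed signal did not overlap between groups: it was 14.91 to 14.99 in Control, 14.61 to 14.62 in CHIR, 15.05 to 15.09 in Forskolin and 14.75 to 14.83 in the combination. Macrophages are rich in lysosomes and in Tfec, so 9 of their markers were examined as well. Only Cd68, itself a lysosomal protein, lay above the reference in any group, and Ptprc, Csf1r, Adgre1, Tyrobp, Cd14, Itgam, Aif1 and Spi1 did not. The log2 of the summed signal of these 9 genes ran from 9.03 to 9.24 in Control, from 9.02 to 9.21 in CHIR, from 9.08 to 9.21 in Forskolin and from 9.12 to 9.19 in the combination. The summed signals of markers of 2 other cell types differed between treatments, but the medians of these lists did not all follow. The trophoblast median was 5.91 in Control, 5.67 in CHIR, 5.90 in Forskolin and 5.84 in the combination. That of the pluripotency markers was 7.19, 6.51, 7.41 and 6.55 in the same order. Of 3 measured trophoblast markers, Cdx2 lay above the reference in CHIR and in the combination and none did in the other groups, and the log2 summed signal was 7.30 to 7.44 in Control, 8.02 to 8.34 in CHIR, 7.43 to 7.73 in Forskolin and 7.88 to 8.35 in the combination. Of 4 measured pluripotency markers, Pou5f1 and Klf4 lay above it in every group, with summed signals of 10.84 to 11.00 in Control, 11.69 to 11.72 in CHIR, 11.66 to 11.78 in Forskolin and 11.94 to 11.99 in the combination. Their part in the results was not tested. Of 5 fibroblast markers only Col1a1 lay above it, in every group.

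Tfec was bright in cells without CHIR99021 and near background with it. Its values were 11.53, 11.34 and 11.30 in Control and 6.25, 5.07 and 6.09 in CHIR, so that the lowest Control array stood far above the highest CHIR array. The difference was -5.58 on the log2 scale, a 47.9-fold lower signal, and since the CHIR mean of 5.80 lay below the background reference it may be understated. In whole-culture RNA fewer cells with a transcript and less of it per cell cannot be told apart. In Forskolin the values were 11.08, 10.86 and 11.00, and in the combination 6.59, 6.42 and 6.50. CHIR99021 was thus accompanied by low Tfec signal with forskolin as well, with a difference of -4.47 between the combination and Forskolin. Forskolin alone gave -0.41 against Control, which was not tested.

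The Tfec arrays of the combination all lay above the 3 CHIR arrays, by 0.70 on average. CHIR replicate 2, at 5.07, carried much of that difference, which was 0.33 without it, and the CHIR mean lay below the background reference. Single probe sets of Tfec differed more. Of the 7 probe sets of Tfec, 5 were bright in Control, at 10.89 to 13.18, and in these the combination exceeded CHIR by 1.13 to 2.07. The other 2 lay at 6.60 and 5.19 in Control and differed by 0.12 and 0.02. In the brightest probe set Tfec had 13.18 in Control, 7.47 in CHIR, 12.86 in Forskolin and 9.54 in the combination.

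**Figure D1:**
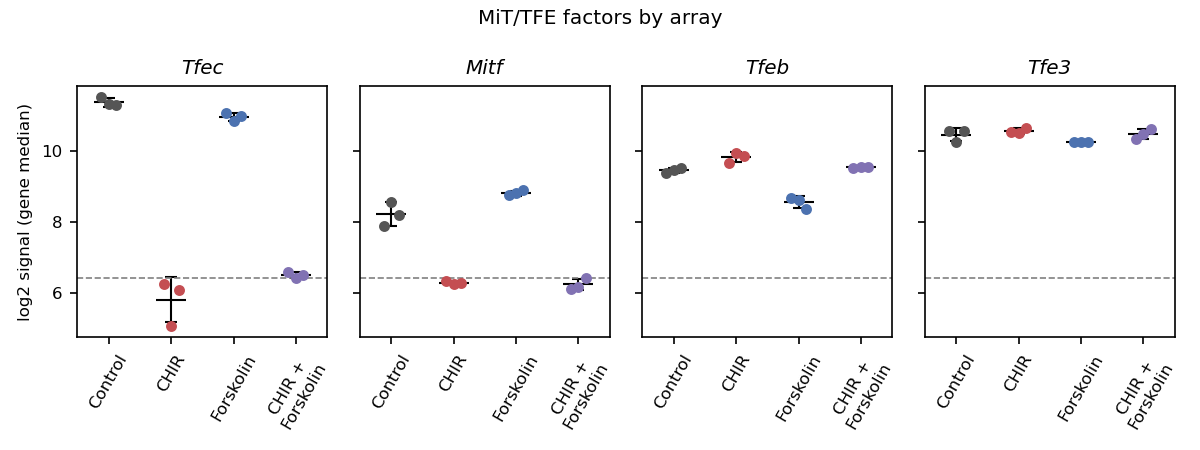
Log2 signal (gene median, vertical axis) of the 4 MiT/TFE factors on each of the 12 arrays, by group (horizontal axis). Points are arrays, the bar is the mean with its SD (n = 3), and the dashed line is the background reference at 6.42. Tfec and Mitf sit near that line in both groups that received CHIR99021, and Tfeb is lowest in Forskolin.

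Mitf, the factor best known from pigment cells and osteoclasts, resembled Tfec in its low signal with CHIR99021, but not with forskolin alone. It measured 7.90, 8.57 and 8.20 in Control, and 6.34, 6.24 and 6.28 in CHIR, all 3 of which lay below the background reference. The difference was -1.94. In Forskolin it measured 8.76, 8.82 and 8.90, above every Control array, and in the combination 6.12, 6.17 and 6.42. Mitf fell by 2.58 on the log2 scale (SE 0.135, adjusted p = 6.27e-09) when the combination is set against Forskolin, a comparison that shares no array with CHIR against Control. The combination mean of 6.24 lay below the background reference, so this size may be understated too. Forskolin alone raised it by 0.60 (SE 0.135, adjusted p = 0.0078), a call that the brightest probe set did not give (0.31, adjusted p = 0.249). In CHIR-treated cells both means of Mitf, 6.29 and 6.24, lay below the background reference, so its gene value could not measure a forskolin effect there. Of its 11 probe sets, 8 were lower in the combination than in CHIR and 3 were higher. The brightest, at 9.27 in CHIR, differed by -0.44. The forskolin effect on the gene value differed with and without CHIR99021 by -0.65 (limma, adjusted p = 0.0642), which did not pass. All 11 probe sets of Mitf were higher in Forskolin than in Control, and all 11 were lower in the combination than in Forskolin, with differences of -0.49 to -4.19.

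Tfeb, the factor most closely tied to lysosome formation, moved the other way. Its values were 9.39, 9.47 and 9.54 in Control and 9.67, 9.94 and 9.87 in CHIR, with a difference of 0.36. In Forskolin they dropped to 8.67, 8.64 and 8.38, below all other arrays, and in the combination they were 9.52, 9.55 and 9.56. Tfeb fell by 0.90 with forskolin alone (SE 0.095, adjusted p = 1.42e-05), and with forskolin present CHIR99021 raised it by 0.98 (SE 0.095, adjusted p = 2.59e-06). In CHIR-treated cells forskolin gave -0.28 (adjusted p = 0.0673). The forskolin effect differed with and without CHIR99021 by 0.62 (SE 0.134, adjusted p = 0.0118). The probe sets of Tfeb disagreed in size: of 10, 9 were higher in the combination than in Forskolin, with differences up to 1.25, while the brightest differed by 0.02 (adjusted p = 0.923) and also gave 0.06 (adjusted p = 0.793) for Forskolin against Control.

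**Figure D2:**
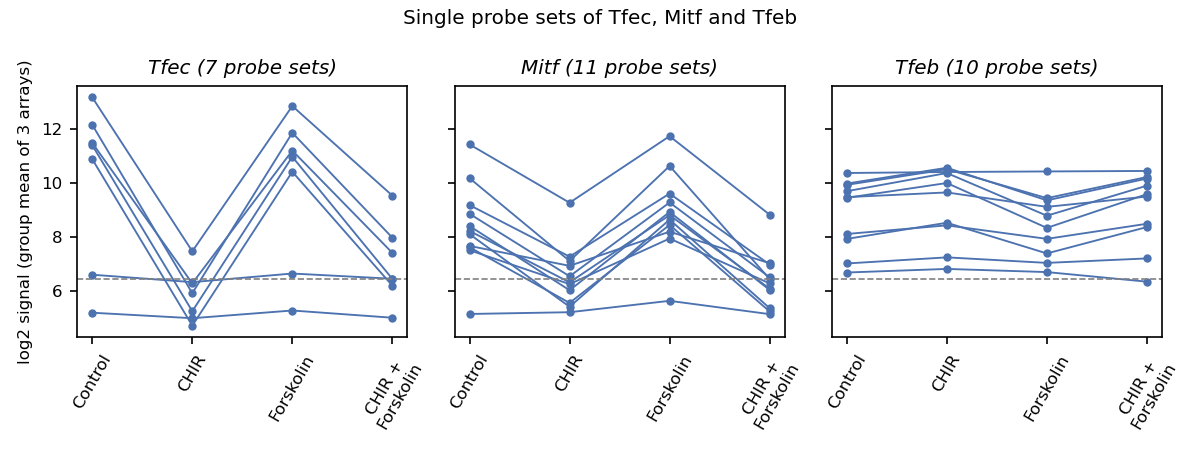
Group means (n = 3 arrays) of single probe sets of Tfec, Mitf and Tfeb, on the log2 signal scale, with the background reference dashed at 6.42. Each line is a probe set: all 7 for Tfec are lower in both groups with CHIR99021 than in the matching group without it, 5 of them steeply, 10 of 11 for Mitf are lower in both, and the brightest line of Tfeb is flat while others dip in Forskolin.

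Tfe3, the broadly expressed relative of Tfeb, changed little in its gene value. Its arrays spanned only 10.25 to 10.66 over all 12, with group means of 10.47 ± 0.18 (SD, n = 3) in Control, 10.57 ± 0.08 in CHIR, 10.27 ± 0.01 in Forskolin and 10.49 ± 0.13 in the combination. CHIR99021 with forskolin present gave 0.22 (adjusted p = 0.107) and forskolin alone -0.20 (adjusted p = 0.205). Its probe sets were less divided: all 11 were lower in Forskolin than in Control, with differences of -0.08 to -0.53. In the combination against Forskolin 10 of the 11 were higher. The family thus held members of opposite behaviour: in the combination against Forskolin, Mitf fell and Tfeb rose, and Tfe3 did not pass.

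The lysosomal genes went both ways in the same cells. In CHIR against Control, 7 of the 30 measured lysosomal genes were called higher and 9 lower (limma, adjusted p under 0.05), and the median log2 difference was -0.03 against 0.01 over all genes. Across all genes 28.1% were called (14.3% higher and 13.9% lower), and 42.6% of the 8421 genes at least as bright as the dimmest member. The lower genes included Scarb2 (-0.75), Gusb (-0.70), Arsa (-0.69), Arsb (-0.49), Cd63 (-0.48) and Lamp1 (-0.39). The higher ones included Asah1 (0.55), Lipa (0.46), Naglu (0.41), Neu1 (0.34), Glb1 (0.34) and Atp6v1a (0.34). Beside the -5.58 of Tfec these differences were small, none of them reaching 1 log2 unit.

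The combination against Forskolin gives the CHIR99021 effect on separate arrays, where the members can be tested. Of the 30 lysosomal genes, 6 rose and 5 fell, against 30% of all genes called (16.4% higher and 13.6% lower) and 46.4% of those as bright as the members. The median difference of the lysosomal genes was -0.09, against 0.001 over all genes. Of the 30, 27 had the same sign as in CHIR against Control, against 71.4% of all genes. Across the 30 genes, which are not independent replicates, Pearson's r between the 2 comparisons was 0.71 and Spearman's rho 0.77. Over all genes r was 0.77 and rho 0.66, and these values and the share of 71.4% include genes near background. Among the 30, the exceptions in sign were Ctsh, Ctsd and Naglu. Called in the same direction in both were 7 genes, which is 43.8% of the 16 called in CHIR against Control and 63.6% of the 11 called here: Lipa, Neu1, Asah1, Atp6v1a and Atp6v1b2 were higher, and Lamp1 and Gusb lower. Over all genes the corresponding shares were 67.3% and 63.0%.

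**Figure D3:**
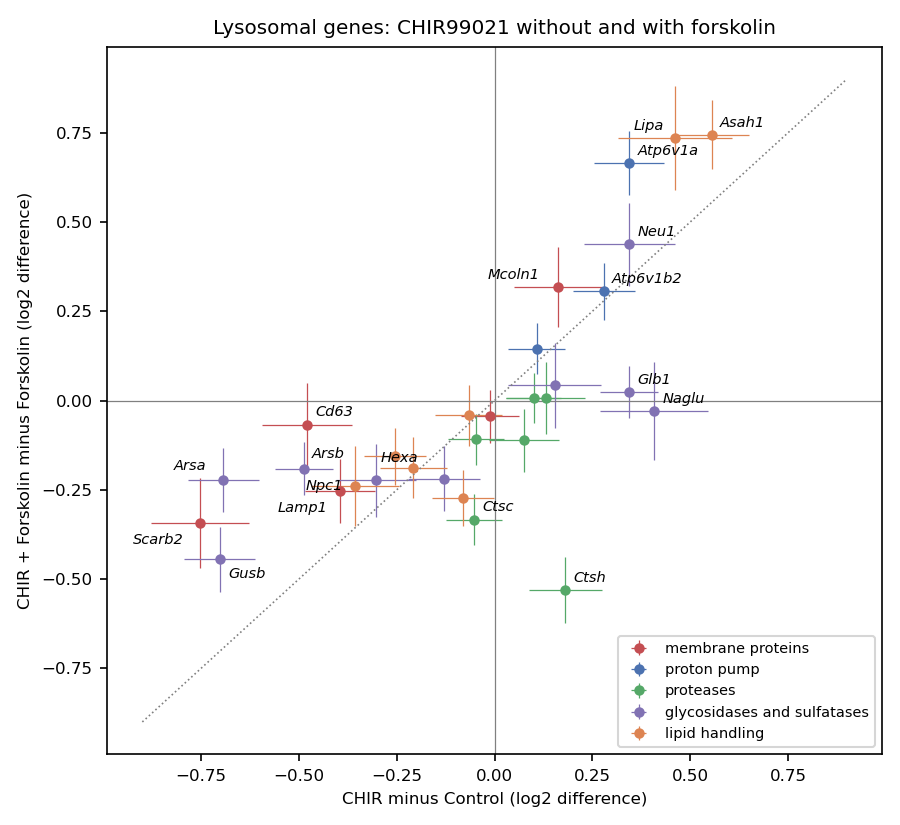
Log2 difference with CHIR99021 in cells without forskolin (CHIR minus Control, horizontal) against that in cells with forskolin (CHIR + Forskolin minus Forskolin, vertical) for the 30 measured lysosomal genes, coloured by role. Bars are the limma SE, the dotted line marks equal differences, and genes beyond 0.3 on either axis are named. Asah1, Lipa, Atp6v1a and Neu1 lie at the upper right, Gusb and Scarb2 at the lower left, and Ctsh lies furthest below the line.

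Of the 3 proton pump subunits among the members, 2 rose in the combination against Forskolin. The V-ATPase acidifies the lysosome, and Atp6v1a encodes its catalytic subunit. Atp6v1a measured 11.43, 11.41 and 11.46 in Forskolin, and 12.09, 12.03 and 12.17 in the combination, a rise of 0.66 (SE 0.089, adjusted p = 5.45e-05) with no overlap, which was 0.33 in its brightest probe set. In Control it had 11.62, 11.67 and 11.61, and in CHIR 11.78, 12.01 and 12.14. Atp6v1b2, the other subunit of the catalytic head among the members, rose by 0.31 (SE 0.079, adjusted p = 0.00858). Atp6v0d1, of the membrane sector, gave 0.15 (adjusted p = 0.158) and did not pass. Of 16 further measured V-ATPase subunits, 7 rose and 1 fell in the same comparison, where 30% of all genes and 46.4% of those as bright as the members were called. In CHIR against Control 3 of the 16 were higher and 1 lower, where 28.1% of all genes were called. The largest of the 7 rises were Atp6v0b (0.91, adjusted p = 0.000113) and Atp6v1b1 (0.87, adjusted p = 4.62e-05), a subunit known from acid-secreting epithelia. The Forskolin mean of Atp6v1b1, 6.41, lay below the background reference. The fall was Atp6v0a4, also known from acid-secreting cells, with -1.71 (adjusted p = 1.26e-08), from 8.16 to 6.45. Its combination mean lay just above the background reference, as did its Control mean of 6.49.

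Of the 7 genes of lipid handling 2 rose and 1 fell in the combination against Forskolin, where 30% of all genes were called. The median of the 7 was -0.16, and the 2 had the largest rises among the 30 lysosomal members. Asah1, the acid ceramidase that cleaves ceramide, measured 11.27, 11.27 and 11.26 in Forskolin, and 12.22, 11.88 and 11.93 in the combination. It rose by 0.74 (SE 0.097, adjusted p = 3.93e-05), and all 15 of its probe sets were higher. Control had 11.70, 11.65 and 11.51, and CHIR had 12.24, 12.05 and 12.23, so that every array with CHIR99021 lay above every array without it. Lipa, the lysosomal acid lipase that releases cholesterol from its esters, rose from 9.49 ± 0.08 to 10.23 ± 0.23 (SD, n = 3), by 0.73 (SE 0.145, adjusted p = 0.00137), and by 0.40 in its brightest probe set. Psap, the precursor of the saposins that present sphingolipids to their hydrolases, fell by 0.27 (SE 0.080, adjusted p = 0.0177). That call was lost with the brightest probe set and without combination replicates 2 or 3 or Forskolin replicates 2 or 3 (highest adjusted p = 0.0884). The cholesterol exporters Npc1 (-0.24, adjusted p = 0.134) and Npc2 (-0.04, adjusted p = 0.779), the palmitoyl thioesterase Ppt1 (-0.19, adjusted p = 0.124) and the sphingomyelinase Smpd1 (-0.16, adjusted p = 0.171) did not pass.

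Of the 9 measured glycosidases and sulfatases, 1 rose, 1 fell and 7 did not pass in the combination against Forskolin. Across all genes 30% were called there, and 46.4% of those as bright as the members. Neu1, the sialidase that removes terminal sialic acid, measured 10.64, 10.55 and 10.72 in Forskolin and 11.28, 10.99 and 10.94 in the combination, and rose by 0.44 (SE 0.116, adjusted p = 0.0101). Without combination replicate 1 the value was 0.33 and just missed the threshold (adjusted p = 0.0511). Gusb, the beta-glucuronidase of glycosaminoglycan breakdown, measured 9.40, 9.07 and 9.15 in Forskolin and 8.70, 8.77 and 8.82 in the combination, and fell by 0.45 (SE 0.091, adjusted p = 0.00176), with a difference of -0.23 for the mean of its probe sets. Its Control arrays at 9.33, 9.38 and 9.48 and its CHIR arrays at 8.71, 8.75 and 8.63 showed the same order. The sulfatases Arsa (-0.22, adjusted p = 0.0819) and Arsb (-0.19, adjusted p = 0.0683) did not pass here, nor did Hexa (-0.22), Man2b1 (-0.22), Gla (0.04), Glb1 (0.02) and Naglu (-0.03). The value of Naglu, which acts on heparan sulfate, hides a disagreement among its 5 probe sets. In 4 of them the combination was higher than Forskolin, with a highest difference of 0.98, and the mean of the 5 gave a rise of 0.62 (adjusted p = 5.8e-05).

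**Figure D4:**
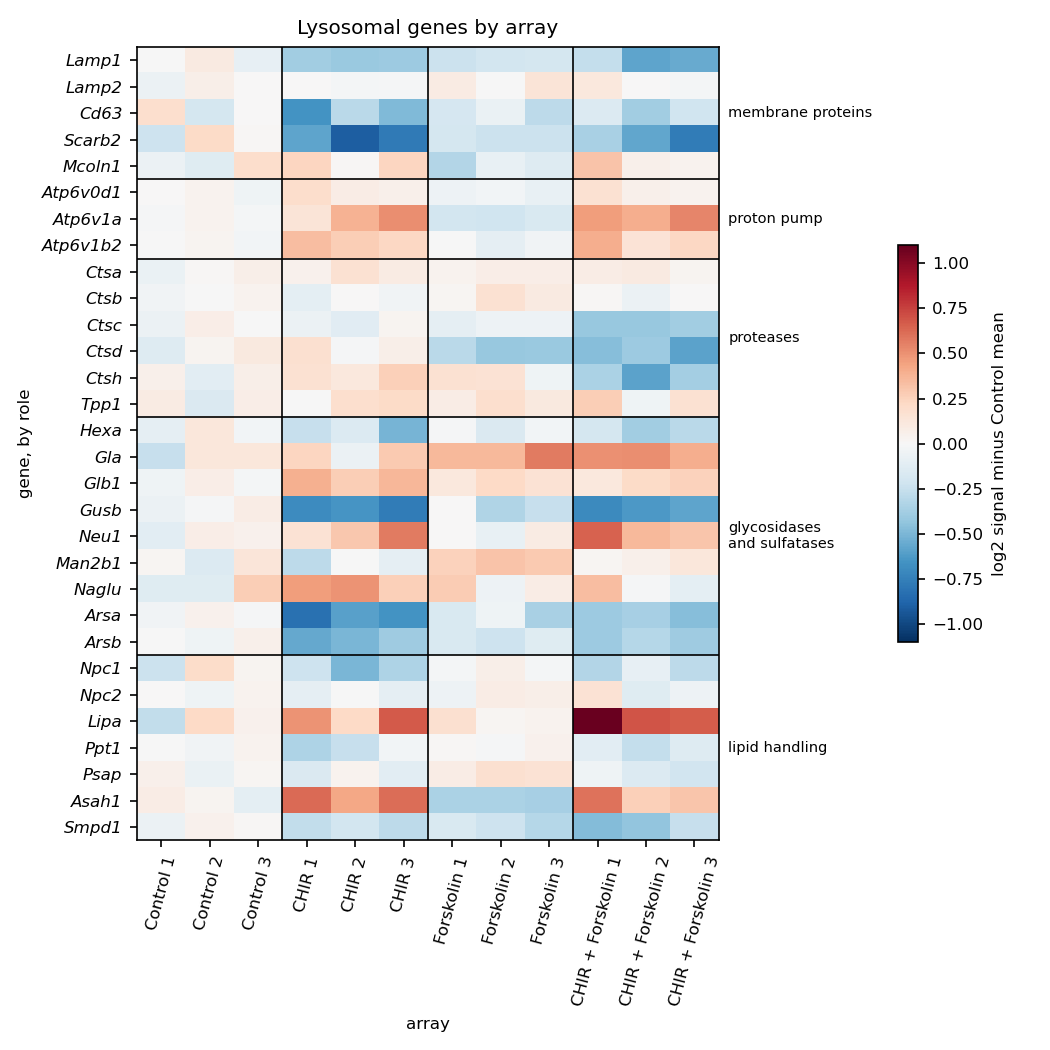
Log2 signal minus the Control mean for the 30 measured lysosomal genes (rows, by role) on the 12 arrays (columns, by group), red for higher and blue for lower. Asah1, Lipa and Atp6v1a are red in CHIR and in CHIR + Forskolin, Scarb2, Gusb and Arsa are blue there, and Ctsc, Ctsd and Ctsh are blue in CHIR + Forskolin.

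Of the 5 lysosomal membrane proteins 1 fell and 1 rose in the combination against Forskolin, both close to the threshold. Across all genes 30% were called there. Lamp1, a major glycoprotein of the lysosomal membrane, measured 11.83, 11.86 and 11.87 in Forskolin and 11.80, 11.48 and 11.51 in the combination, a difference of -0.25 (adjusted p = 0.0469). Combination replicate 1 stood close to the Forskolin arrays, and 15 of 20 alternative settings lost the call (highest adjusted p = 0.956). Mcoln1, the lysosomal calcium channel, passed narrowly upward (0.32, adjusted p = 0.0467), and 11 of 20 settings lost it (highest adjusted p = 0.973), with a sign change to -0.005 in its brightest probe set. Scarb2, the receptor that carries beta-glucocerebrosidase to the lysosome, gave -0.34 (adjusted p = 0.0537). Cd63, a tetraspanin of late endosomes, gave -0.07 (adjusted p = 0.731). Lamp2, the partner of Lamp1, spanned only 13.19 to 13.40 over the 12 arrays, and no comparison of it passed.

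Of the 6 measured proteases, 0 were called in CHIR against Control in either direction (0 at an unadjusted limma p under 0.05). Across all genes 28.1% were called there, and 42.6% of those as bright as the members. With forskolin present, 2 fell, where 30% of all genes were called and 46.4% of those as bright as the members. Ctsh, a cathepsin with aminopeptidase activity, measured 8.46, 8.45 and 8.24 in Forskolin and 7.94, 7.70 and 7.92 in the combination, and fell by 0.53 (SE 0.093, adjusted p = 0.000542). Ctsc, which activates granule proteases, fell from 13.02 ± 0.03 to 12.68 ± 0.02 (SD, n = 3), by 0.33 (SE 0.072, adjusted p = 0.00255), a call lost with its brightest probe set (adjusted p = 0.0513). The cathepsins Ctsa (0.01), Ctsb (-0.11) and Ctsd (-0.11) and the peptidase Tpp1 (0.01) did not pass.

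Forskolin on its own called few lysosomal genes. Against Control, 1 of 30 rose and 2 fell, where 15% of all genes were called (6.07% higher and 8.92% lower) and 22.3% of those as bright as the members, and the median difference was -0.02 against -0.004 over all genes. Gla, the alpha-galactosidase that is deficient in Fabry disease, rose by 0.43 (SE 0.119, adjusted p = 0.0248) from 9.89, 10.27 and 10.26 to 10.50, 10.50 and 10.71. Without Control replicate 1, its lowest array, or without Forskolin replicate 3 the call was lost (highest adjusted p over all settings 0.411, from its brightest probe set). Ctsd, the main aspartic protease of lysosomes, fell by 0.37 (SE 0.089, adjusted p = 0.0108) from 10.92, 11.09 and 11.17 to 10.76, 10.64 and 10.65, a call lost without Control replicate 3 (adjusted p = 0.0564). Asah1 fell by 0.36 (SE 0.097, adjusted p = 0.0227), which 6 of 20 settings lost (highest adjusted p = 0.433).

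In CHIR-treated cells forskolin lowered 3 cathepsins and raised none of the lysosomal genes, with 13.8% of all genes called (6.51% higher and 7.33% lower) and 21.4% of those as bright as the members. An unadjusted limma p under 0.05 was reached upward by 3 of the 30. Ctsh fell by 0.62 (SE 0.093, adjusted p = 0.000421), Ctsd by 0.56 (SE 0.089, adjusted p = 0.000603) and Ctsc by 0.35 (SE 0.072, adjusted p = 0.00395), the last lost with its brightest probe set (adjusted p = 0.0598). In CHIR, Ctsh measured 8.46, 8.40 and 8.55, Ctsd 11.24, 11.05 and 11.12, and Ctsc 13.02, 12.97 and 13.12, and no array of the combination reached these ranges. Ctsd was the only lysosomal gene called in both forskolin comparisons, which share no array. Of the 30 genes 17 had the same sign in these 2 comparisons (Spearman's rho 0.09), against 60.6% of all genes (rho 0.36). The share of all genes again includes those near background. For Ctsh the forskolin effect with CHIR99021 differed from that without by -0.71 (SE 0.132, adjusted p = 0.0045), and all 12 of its probe sets were lower in the combination than in CHIR. For Arsa that difference was 0.47 (SE 0.128, adjusted p = 0.0435), lost in 14 of 19 settings (highest adjusted p = 0.793). Across all genes 6.31% differed in this way (3.25% upward and 3.07% downward), and 8.36% of those as bright as the members. For Ctsc (adjusted p = 0.141), Ctsd (adjusted p = 0.502), Gla (adjusted p = 0.819) and Asah1 (adjusted p = 0.549) this difference did not pass.

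**Figure D5:**
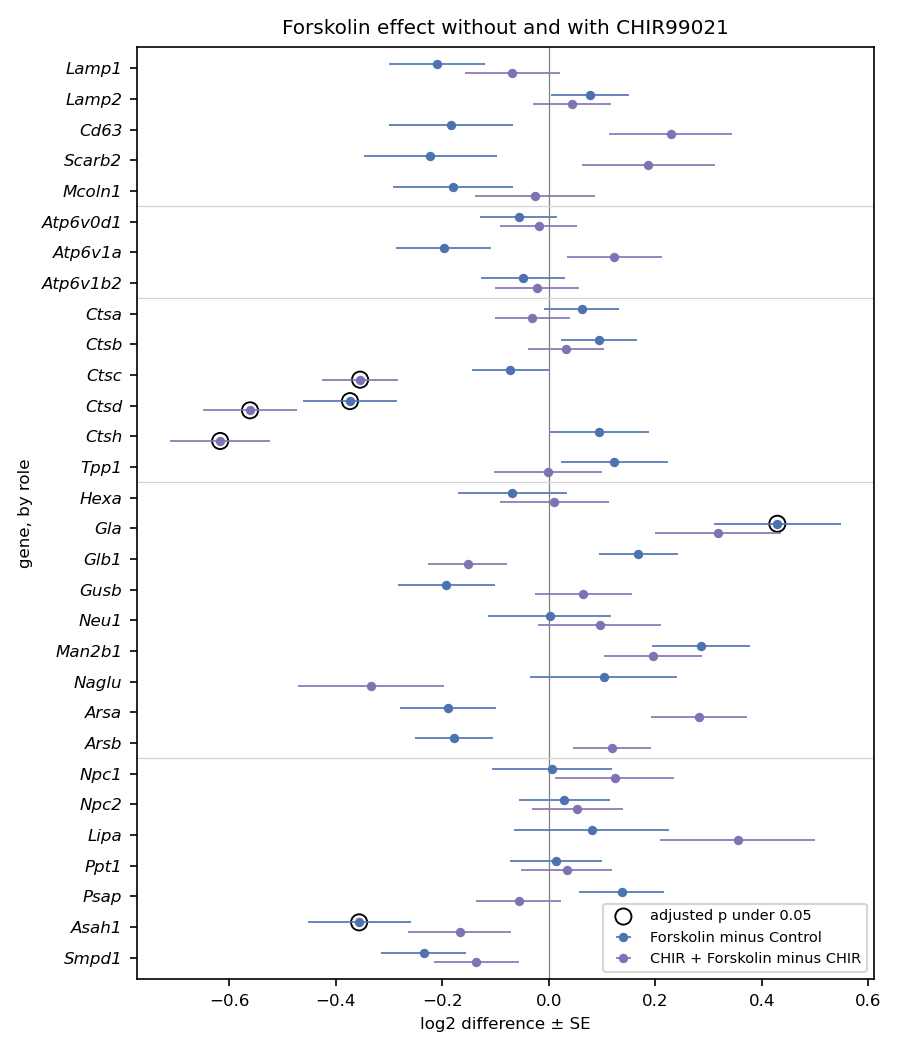
Log2 difference with forskolin (horizontal, ± limma SE) for the 30 measured lysosomal genes (vertical, by role), in cells without CHIR99021 (blue) and with it (purple). Circled points have an adjusted p under 0.05: Ctsd in both comparisons, Ctsc and Ctsh only with CHIR99021, and Gla and Asah1 only without it, where only for Ctsh did the difference between the comparisons itself pass.

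The combination against Control, which shares its Control arrays with 2 of the comparisons above, called 6 lysosomal genes higher and 10 lower, with 29% of all genes called (14.3% higher and 14.7% lower) and 44.1% of those as bright as the members. Lipa rose by 0.82 (adjusted p = 0.000626), and by 0.52 in its brightest probe set. Gusb gave -0.64 (adjusted p = 9.64e-05), but -0.30 for the mean of its probe sets. Scarb2 (-0.57, adjusted p = 0.00328), Arsa (-0.41, adjusted p = 0.00307), Arsb (-0.37, adjusted p = 0.00157) and Smpd1 (-0.39, adjusted p = 0.00182) were lower. Gla was higher by 0.47 (adjusted p = 0.00763). With the brightest probe set the calls of Gla (0.07, adjusted p = 0.797), Arsb (-0.16, adjusted p = 0.158), Lamp1 (-0.12, adjusted p = 0.233), Atp6v1a (0.22, adjusted p = 0.128) and Atp6v1b2 (0.09, adjusted p = 0.422) were lost. Tfeb, at 0.08 (adjusted p = 0.622), did not pass.

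Promoter sequence was examined because MiT/TFE factors read a known motif. RefSeq promoter windows of the GRCr8 assembly, from 250 bases before to 50 bases after the start of a gene, were matched by symbol for 28 of the 36 members, 24 of them lysosomal. The core of the CLEAR element, TCACGTGA, was searched on both strands, as were the E-box CACGTG, which the core contains, and the M-box core CATGTG. TCACGTGA stood in 4 of the 24 lysosomal promoters (16.7%) and in 0.777% of all 33469 windows. CACGTG stood in 7 of the 24 (29.2%) against 6.42% of all, and CATGTG in 7 of the 24 (29.2%) against 14% of all. Among the 14631 windows of measured genes the shares were 1.23% for TCACGTGA, 7.94% for CACGTG and 10.1% for CATGTG. The members were chosen as genes the family is known to regulate, so their shares describe that choice. None of the 3 motifs stood in the windows of Tfec, Tfeb, Tfe3 or Mitf, each of which is a single window and does not cover other start sites. The 5 CLEAR cores are shown with their surroundings, since they mark the members with the motif of the family, written 5′ to 3′ on the strand of the gene with the motif in capitals. They lie at chr16:83075111-83075140 and chr16:83075084-83075113 (both of Lamp1, minus strand), chr1:206968814-206968843 (Ctsd, minus strand), chr12:6358250-6358279 (Mcoln1, plus strand) and chr19:50357283-50357312 (Atp6v0d1, minus strand).
Lamp1, upstream site: agaccctcggcTCACGTGAccggcgggcgc
Lamp1, downstream site: cgcggcactgtTCACGTGAcaggcgctgcc
Ctsd: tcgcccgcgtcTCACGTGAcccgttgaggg
Mcoln1: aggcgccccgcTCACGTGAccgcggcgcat
Atp6v0d1: ccccattgtggTCACGTGAgatgcagtgcg

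Lamp1 held the most E-boxes of the members, 5 in its window, of which 2 are CLEAR cores. Its whole window, chr16:83075014-83075313 on the minus strand of GRCr8, is shown for that reason, with each CACGTG or TCACGTGA in capitals.
Lamp1 promoter: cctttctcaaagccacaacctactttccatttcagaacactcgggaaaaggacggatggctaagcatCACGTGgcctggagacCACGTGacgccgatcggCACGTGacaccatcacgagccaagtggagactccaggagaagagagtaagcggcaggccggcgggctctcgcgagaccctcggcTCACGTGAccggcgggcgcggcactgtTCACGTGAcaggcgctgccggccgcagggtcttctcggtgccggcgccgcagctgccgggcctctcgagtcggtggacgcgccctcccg

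Members with the motif did not move as a block. Of the 4 with TCACGTGA, the combination against Forskolin placed Lamp1 at -0.25, Ctsd at -0.11, Atp6v0d1 at 0.15 and Mcoln1 at 0.32. Of the 22 lysosomal genes with both a window and a measurement, the 6 with CACGTG (the 7 above without Sgsh, which was not measured) had a median of -0.02 in that comparison and the 16 without it -0.04. In Forskolin against Control the medians were -0.18 with and 0.05 without, and Ctsd was the only 1 of the 6 to pass. Holding the letters of a motif is a description of the window and does not show that a factor binds there.

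Other parts of the lysosome were counted on lists of further genes, to be read against the 16.4% of all genes called higher and 13.6% called lower in the combination against Forskolin. Of 19 further hydrolases and cofactors, 2 rose and 9 fell in the combination against Forskolin (median -0.25), led downward by the cathepsin Ctsf (-1.17, adjusted p = 8.83e-08) and the phospholipase Pla2g15 (-0.70, adjusted p = 1.53e-05) and upward by Galns (0.49, adjusted p = 0.00331) and Manba (0.34, adjusted p = 0.0104). Of 17 further membrane and sorting genes 4 rose and 3 fell. These were led by receptors that carry hydrolases to the lysosome: Sort1, which encodes sortilin, fell by 2.06 (adjusted p = 1.13e-07), and Igf2r, the large mannose 6-phosphate receptor, rose by 0.88 (adjusted p = 1.58e-05). Gnptab, which builds the mannose 6-phosphate tag, fell by 0.54 (adjusted p = 0.000199), and Cln3 rose by 0.41 (adjusted p = 0.0309). With forskolin alone Sort1 (1.14, adjusted p = 8.73e-05) and Gnptab (0.63, adjusted p = 0.000138) rose, while Igf2r (-0.43, adjusted p = 0.0112) and Laptm4b (-0.40, adjusted p = 0.00977) fell. Atp6v0a4 rose with forskolin alone by 1.67 (adjusted p = 5.48e-08), from a Control mean just above the background reference. Of the other V-ATPase subunits only Tcirg1 was called, falling by 0.38 (adjusted p = 0.0101), where 15% of all genes were called. Of the hydrolases, Ctsk (0.56, adjusted p = 0.000204) and Pla2g15 (0.40, adjusted p = 0.00417) rose with forskolin alone, and Ctsl (-0.51, adjusted p = 0.00916) and Manba (-0.44, adjusted p = 0.00406) fell.

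Of 20 measured autophagy genes, 10 fell and 3 rose in the combination against Forskolin, with a median of -0.22, where 13.6% of all genes were called lower and 16.4% higher. Ulk1, the kinase that starts autophagy, fell from 9.90 to 7.77 with a difference of -2.13 (adjusted p = 4.98e-08), and Gabarapl1, of the family that coats autophagosomes, differed by -1.81 (adjusted p = 2.12e-07). Atg16l1 (0.49, adjusted p = 0.00472) and Vps11 (0.41, adjusted p = 0.00135) led the rises. With forskolin alone 0 rose (1 at an unadjusted limma p under 0.05) and only Gabarapl1 fell (-0.44, adjusted p = 0.0436). Across all genes 15% were called in that comparison.

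Genes that set where MiT/TFE proteins reside were also examined, although arrays do not measure their activity. Of 21 measured, 7 rose and 2 fell in the combination against Forskolin, beside 30% of all genes called and 46.4% of those as bright as the members. Rragc, a Rag GTPase that docks these factors at the lysosome, rose by 0.84 (adjusted p = 0.000139) and Fnip2 by 0.63 (adjusted p = 0.00788), while Rragd (-0.44, adjusted p = 0.0159) and the amino acid sensor Slc38a9 (-0.62, adjusted p = 0.00234) fell. With forskolin alone 0 rose (0 at an unadjusted limma p under 0.05) and 3 fell, near the 15% of all genes called there. Rragd (-0.66, adjusted p = 0.00237) and Flcn (-0.47, adjusted p = 0.0462) led these falls. The transcripts of the kinases that CHIR99021 inhibits, Gsk3a (0.32, adjusted p = 0.0122) and Gsk3b (0.33, adjusted p = 0.00667), were higher in the combination than in Forskolin, and Mtor (0.13, adjusted p = 0.405) did not pass. Forskolin alone gave -0.05 for Gsk3a (adjusted p = 0.808), -0.01 for Gsk3b (adjusted p = 0.947) and -0.19 for Mtor (adjusted p = 0.279), and against CHIR the combination gave 0.10 (adjusted p = 0.564), -0.05 (adjusted p = 0.807) and -0.01 (adjusted p = 0.967).

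Genes known as targets of the family in pigment cells, osteoclasts and macrophages were counted too. Of 12 measured, 1 rose and 3 fell in the combination against Forskolin, near the 30% of all genes called. Hmox1, the heme oxygenase, rose by 0.71 (adjusted p = 6.62e-06), and Pmel, a structural protein of melanosomes, fell by 0.54 (adjusted p = 0.00118). Ppargc1a fell by 0.46 (adjusted p = 0.0321), with both group means, 5.02 and 5.47, below the background reference. With forskolin alone Ctsk rose and Hmox1 fell by 0.34 (adjusted p = 0.00678).

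The same lists were counted in the combination against CHIR, where 13.8% of all genes were called. There, 3 of 19 further hydrolases rose and 2 fell, 2 of 17 membrane and sorting genes rose and 1 fell, and 4 of 16 V-ATPase subunits rose. Of the 20 autophagy genes 1 rose and 1 fell, and of the 12 pigment cell and osteoclast targets 2 rose. Of the 21 regulators 0 rose and 0 fell by limma (0 and 5 at an unadjusted p under 0.05).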

How the data were processed

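The authors deposited log2 signals, 1 value per probe set and array, for 211195 probe sets on 12 arrays. Per the submitters' processing notes these came from RMA and Partek, and RMA corrects background, normalises between arrays and summarises probes. Their versions and options, and the build, are not stated in the labels used. The log base was read from the range of the deposited values. Near background RMA compresses differences, and 3 arrays per group limit the precision.

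The platform annotation, which is old, gave 172924 probe sets a single symbol and 1661 several, which were left out with 36610 unnamed. Symbols were updated through the GRCr8 gene table (12878 current, 3640 updated, 115 kept), giving 16633 genes, each the median of its probe sets (4 to 25 per member). Sequences and positions are RefSeq's for GRCr8.

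All 12 arrays entered 1 linear model with a mean per group, fitted with limma 3.58.1 in R 4.3.3 (eBayes without trend), with two-sided tests and Benjamini-Hochberg adjustment over all genes of a comparison at a threshold of 0.05. The interaction is the forskolin effect with CHIR99021 minus that without it. The fit was tested on simulated data. Members and lists were chosen with earlier results of these data known. All members are named, and of each further list the 2 largest rises and 2 largest falls past the threshold in the combination against Forskolin and in Forskolin against Control, with Gsk3a, Gsk3b and Mtor. Alternatives were other gene values, scalings, filters and variance models, a replicate block, and leaving out each array. Replicate numbers were not taken as pairs in the main fit, and whether they pair the samples is not known. Of 18 same-numbered pairs of arrays, 1 had a correlation of deviations above 0.1, and of 36 different-numbered pairs 3 did. With 3 arrays per group this cannot decide it.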

Additional observations from a re-analysis of the deposited data

Results flagged for a closer look

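In 3 members besides Tfec, which is not tested, the effect of forskolin differed between cells with and without CHIR99021 by the interaction test over all genes. This count is near the share of all genes that passed, 6.31%, and of those as bright as the members, 8.36%. For Tfeb the difference was 0.62 (adjusted p = 0.0118): forskolin gave -0.90 without CHIR99021 and -0.28 with it, and the test was lost with the mean of the probe sets and with the brightest probe set. For Ctsh it was -0.71 (adjusted p = 0.0045), with 0.09 without CHIR99021 and -0.62 with it, and it passed in all 19 alternatives (highest adjusted p = 0.0404). For Arsa it was 0.47 (adjusted p = 0.0435), with -0.19 without and 0.28 with CHIR99021, and it was lost in 14 of 19 alternatives.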

How the results depend on the processing

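Counts of members include Tfec, which was chosen on these values, so its place in a count is not a test. It enters the counts of every comparison except Forskolin against Control. It is the 1 higher in the combination against CHIR, and 11 of 20 settings lost it there. Most values held. Of 4040 recomputed differences of single members, 3842 kept their call or stayed within 1 SD of the replicates, 92 lost a call, 74 gained one, 27 untested values moved by more than 1 SD and 5 changed sign with a call on either side. The choice of probe sets mattered most, over all genes as well. With the mean of the probe sets, all genes called lower numbered 2819 in place of 2270 in the combination against Forskolin. They numbered 2188 in place of 1483 in Forskolin against Control and 833 in place of 510 in the interaction. With the brightest probe set, 1941 of all genes in place of 2373 were higher in CHIR against Control, and 304 in place of 540 in the interaction. With the mean of the probe sets, members lower numbered 14 in place of 7 in the combination against Forskolin, 6 in place of 3 in Forskolin against Control and 3 in place of 1 in the interaction, and in the combination against CHIR 3 were higher and 5 lower in place of 1 and 3. With the brightest probe set, 4 in place of 8 were higher in CHIR against Control, 0 (in place of 2) higher and 1 lower in Forskolin against Control, 2 higher in the combination against CHIR, and 1 in place of 3 higher in the interaction. Sign changes were Naglu in the combination against Forskolin (0.62 with the mean and 0.61 with the brightest probe set), and with the brightest probe set Mcoln1 there (-0.0046), Tfeb in Forskolin against Control (0.0583) and Tfeb in the interaction (-0.0193). The cause was not tested. In the combination against CHIR, members higher numbered 2 with centred arrays, without dim genes and with the replicate block, and 0 with the compared arrays only. In the interaction, members lower numbered 2 with centred arrays and 3 with an intensity trend. The replicate block moved no other count by more than 1.5 times.

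Leaving out each array in turn gave 5 to 8 members higher and 8 to 11 lower in CHIR against Control, 5 to 7 higher and 5 to 8 lower in the combination against Forskolin, 1 to 3 higher and 2 to 4 lower in Forskolin against Control, 0 to 1 higher and 3 to 4 lower in the combination against CHIR, 4 to 6 higher and 11 to 13 lower in the combination against Control, and 1 to 3 higher and 1 to 2 lower in the interaction. Over all genes the same settings gave 2024 to 2435 higher and 1973 to 2330 lower in CHIR against Control. In the combination against Forskolin they gave 2265 to 2781 higher and 1916 to 2328 lower. With each array centred, 1202 genes were higher and 1167 lower in Forskolin against Control, in place of 1009 and 1483, and 2792 and 2148 in the combination against Control, in place of 2379 and 2442. Tfec without CHIR replicate 2 differed by -5.22 between CHIR and Control.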
